A study of Rattus norvegicus with 8 samples.

Results

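Cadherins and protocadherins are calcium-dependent adhesion proteins of the cell surface, described here in rat hippocampal cultures that received vehicle or an NMDA receptor positive allosteric modulator (PAM). Members were all entries of the authors' deposited comparison table whose gene symbol begins with Cdh and a digit, Pcdh or Celsr, or is Fat1, Fat2, Fat3 or Fat4. The rule matched 64 entries, which stand for 54 Ensembl identifiers of 13739 in that table and of 32623 in the count tables. The rule reads symbols, within the identifiers of the authors' table. Of the 54 identifiers, 38 passed the filter on low counts and were tested among 11740 genes.

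All libraries were made from polyadenylated RNA of wild-type SD rat neurons of the hippocampus, kept for 18 days in vitro. Vehicle was given in 4 libraries and PAM in the other 4, and no other difference between the groups is named in the labels. A positive allosteric modulator strengthens the response of a receptor to its agonist, here that of the glutamate-gated NMDA channel. Compound, dose and duration were not given in the sources used here. The labels do not say that the replicates were separate cultures, so p-values measure the spread between these libraries, which may be technical.

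Libraries held 2960406 to 4389430 gene counts, and 3 counts, the limit that a count of 0 allows, correspond to 0.64 to 1.08 CPM (counts scaled by library size, so that libraries can be compared). These limits cover counting error only. PAM 3 and PAM 4 stood apart from the other libraries. The slope of a library's log2 levels, relative to the mean of all libraries, was -0.0853 and -0.132 per doubling of exonic length in these 2 and between 0.00524 and 0.0627 in the other 6. Members whose values turn on these libraries are given with and without them.

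Classical cadherins bind the same cadherin on a neighbouring cell and are tied to actin by catenins. In neurons they hold the pre- and postsynaptic membranes together and take part in the growth of dendritic spines. Protocadherins form the larger branch of the superfamily: non-clustered ones are expressed by region and cell type, and clustered ones are drawn from promoter arrays in combinations that give each neuron a surface identity used in self-avoidance. Celsr and Fat proteins are giant cadherins of planar cell polarity and tissue growth control.

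Among the tested members, 1 rose with PAM and 5 fell, at an adjusted p under 0.05 (edgeR's quasi-likelihood test with Benjamini-Hochberg adjustment over all 11740 genes). Cdh13, Pcdh1, the Pcdha locus, Celsr2 and Cdh8 fell, and Fat1 rose. The share called was 15.8% of the tested members, beside 18.9% of all tested genes. By direction, 2.63% of the members rose beside 9.0% of all genes, and 13.2% fell beside 9.89%. The median log2 fold change was -0.12 over the 38 tested members and 0.02 over all tested genes, and 24 of the 38 estimates were below 0 (63.2%, beside 48.1% of all). In the authors' deposited table, 6 of the 54 members had an adjusted p under 0.05. This is a smaller share than the 17.4% of all its identifiers (2392 of 13739). In bulk RNA, fewer cells of a type and less RNA per cell cannot be told apart.

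**Figure D1:**
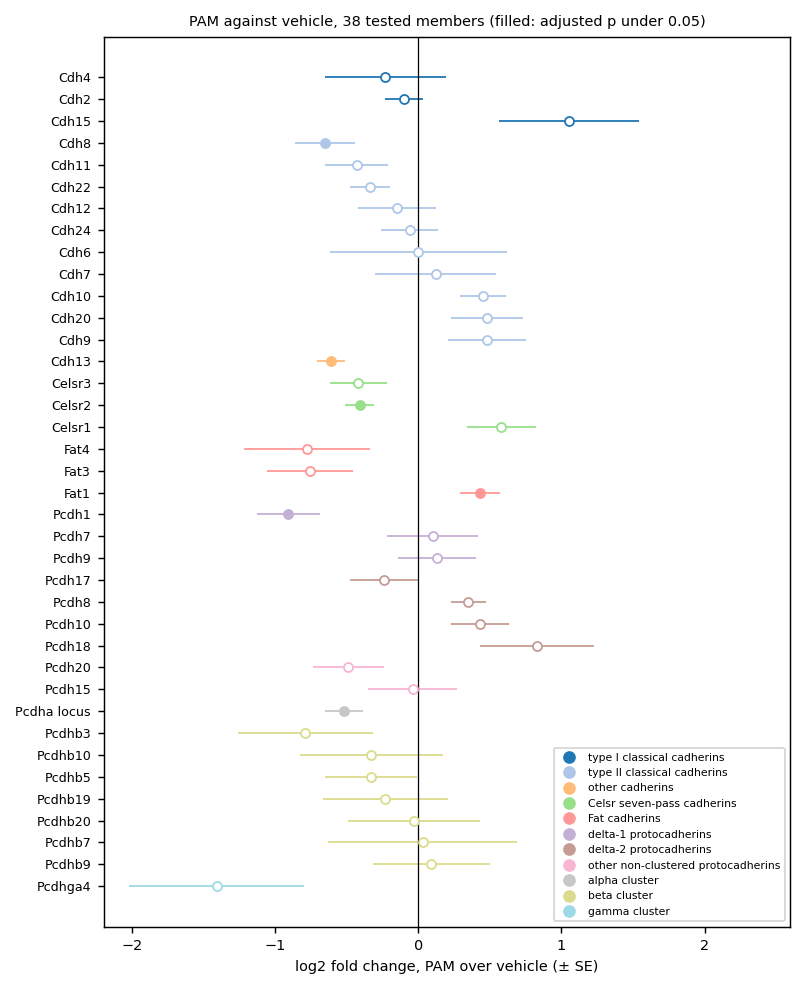
Log2 fold change of PAM over vehicle (horizontal axis) for the 38 tested members, with bars of 1 standard error, coloured by class and filled where the adjusted p was under 0.05. Filled points are the 5 members that fell and Fat1, and the widest bars belong to clustered members and others of low count.

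The cultures also differed in markers of cell types, measured in the same libraries. Listed markers without a matching symbol in the authors' table were left out. These were Snap25 for neurons, Foxj1, Spag16 and Kcnj13 for ependyma and choroid plexus, and Cx3cr1 and Itgam for microglia. Also left out were Pecam1, Cldn5, Flt1 and Tek for endothelial cells, and Col1a2 and Rgs5 for fibroblasts and mural cells. Summed over the 7 neuronal markers, CPM ranged from 3725 to 4336 with vehicle and from 2616 to 3053 with PAM. Of the 7, 4 fell (57.1%, beside 9.89% of all tested genes). The 8 astrocyte markers summed to 6237 to 6564 with vehicle and 9133 to 11113 with PAM, and 5 of them rose (62.5%, beside 9.0% of all tested genes). Oligodendrocyte lineage markers summed to 898 to 1022 and 1300.1 to 1692, with 5 of 9 higher (55.6%, beside 9.0%) and 1 lower (11.1%, beside 9.89%). Ependymal and choroid plexus markers summed to 41.0 to 58.8 and 150.3 to 233, and all 5 tested genes of that list rose (2 more, Ttr and Clic6, were too low to test). Of these 5, Tmem212 met the low-count filter because of its PAM levels. Single libraries held 6 to 24 of its counts under vehicle and 47 to 115 under PAM. With no such filter its log2 fold change was 2.14 (edgeR's adjusted p = 4.1e-09). Fibroblast and mural markers ranged from 96.6 to 151 and from 134 to 245. Of the 5 tested, 2 rose (40.0%, beside 9.0% of all tested genes) and 1, Lum, was lower at an unadjusted p under 0.05. Endothelial markers ranged from 5.95 to 11.6 and from 12.0 to 22.8, nearly all of it Kdr, the 1 tested gene, which rose. The other, Emcn, was too low to test and went the other way, from 0.313 to 0.826 CPM with vehicle and 0 to 0.213 with PAM. Microglial markers ranged from 17.3 to 53.8 and from 12.6 to 21.1. Of 2 tested, 0 passed edgeR's test (beside 18.9% of all tested genes), DESeq2 or limma-voom, and 1, C1qb, had an unadjusted p under 0.05. The part of these shifts in any member's value was not tested.

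Levels of different members are compared per kilobase of exon. In vehicle libraries Pcdh8 was the most abundant at 95.3 ± 12.2 CPM per kilobase (SD, n = 4). Cdh2 followed at 48.1 ± 3.73 and Cdh13 at 43.8 ± 3.1, and the spreads of these 2 levels overlapped. Next came Cdh22 at 23.4 ± 2.79, Celsr2 at 18.2 ± 1.41, Pcdh1 at 11.7 ± 2.9 and Cdh24 at 10.8 ± 2.63, the last 2 also with overlapping spreads. The Pcdha locus, at 5.33 ± 0.658, was divided by the exons of all its isoforms together, so its place in this order is uncertain. At the other end stood Pcdh12, a protocadherin known from endothelial cells, at 0.172 ± 0.125 CPM per kilobase.

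**Figure D2:**
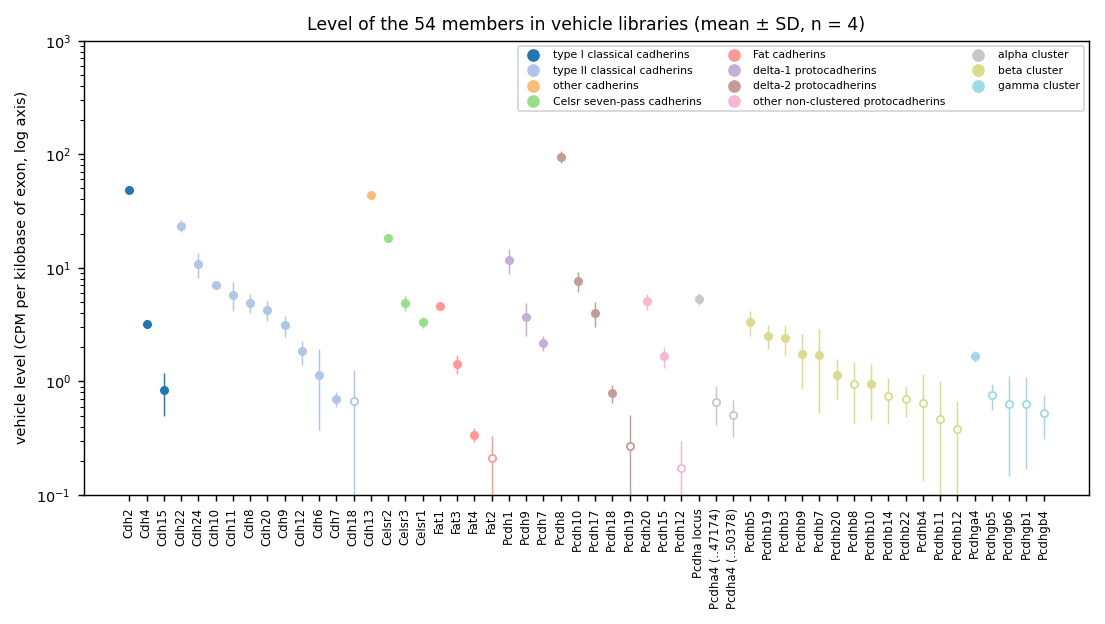
Vehicle level of each of the 54 members in CPM per kilobase of exon (log axis), as mean ± SD over 4 libraries, coloured by class; open points were too low to test and bars that reach 0 end at the axis. Pcdh8 lies highest at 95.3, followed by Cdh2 at 48.1 and Cdh13 at 43.8, while the beta and gamma genes, most of them counted over 1 exon block, lie low.

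Type I classical cadherins were represented by 3 genes. None passed edgeR's test (beside 18.9% of all tested genes), DESeq2 or limma-voom, and 1, Cdh15, had an unadjusted p under 0.05. Cdh2, N-cadherin, the main classical cadherin of central synapses, had a CPM of 225, 218, 205 and 188 in vehicle 1 to 4, against 237, 212, 174 and 157 in PAM 1 to 4. The groups overlapped, PAM 1 being the highest and PAM 4 the lowest of all 8 libraries. Its means were 209 ± 16.2 and 195 ± 36.3 CPM (SD, n = 4 each), a log2 difference of -0.10 ± 0.13 (SE). The estimate took the opposite sign, 0.12, when PAM 3 and PAM 4 were left out. Cdh4, R-cadherin, ranged from 7.93 to 9.39 CPM with vehicle and read 10.6, 8.53, 8.21 and 1.08 in PAM 1 to 4, so that PAM 4 lay far below the other 7 libraries. Cdh15, M-cadherin, best known from muscle, averaged 2.34 ± 0.952 and 4.82 ± 2.07 CPM (log2 difference 1.05 ± 0.49, SE) and missed the threshold with an adjusted p of 0.147 by edgeR's quasi-likelihood test with Benjamini-Hochberg adjustment.

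Type II classical cadherins, which mark subsets of neurons and their synapses, counted 11 members, of which 10 were tested, 1 fell and none rose (1, Cdh10, was higher at an unadjusted p under 0.05, and none by DESeq2 or limma-voom). Cdh8 is a type II cadherin of hippocampal and cortical circuits (chromosome 19, 6046665 to 6426216, plus strand, Rnor_6.0). Cdh8 read 31.1, 25.6, 21.3 and 33.6 CPM in vehicle 1 to 4, against 17.3, 22.0, 17.8 and 13.3 in PAM 1 to 4. PAM 2 lay just above vehicle 3, so the groups overlapped by that pair alone. The means were 27.9 ± 5.55 and 17.6 ± 3.53 CPM (SD, n = 4 each), and the log2 fold change was -0.65 ± 0.21 (SE; adjusted p = 0.039, edgeR's quasi-likelihood test with Benjamini-Hochberg adjustment). The call was lost when vehicle 1, 2 or 4 or PAM 1, 3 or 4 was left out, with adjusted p-values of up to 0.141 and log2 fold changes that stayed negative.

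Cdh10, a type II cadherin expressed in forebrain neurons, showed the opposite order. It read 29.3, 31.1, 29.7 and 28.5 CPM in vehicle 1 to 4, against 38.7, 45.6, 45.4 and 32.1 in PAM 1 to 4. Every PAM library lay above every vehicle library, as in 10.3% of all tested genes, and Cdh10 was the 1 member with this pattern. Its log2 difference was 0.45 ± 0.16 (SE) with an adjusted p of 0.0612 (edgeR's quasi-likelihood test with Benjamini-Hochberg adjustment), and 0.54 with an adjusted p of 0.0174 without PAM 4. Leaving out any other library gave no call (adjusted p up to 0.145), and removal of the trend with exonic length gave an adjusted p of 0.0264. Cdh22, the most abundant type II member per kilobase, averaged 57.1 ± 6.81 CPM with vehicle and 45.0 ± 4.41 with PAM (log2 difference -0.34 ± 0.14, SE). Vehicle 1, at 50.0, lay within the PAM range, whose top was PAM 3 at 50.1, and the adjusted p was 0.105. Cdh24 averaged 25.2 ± 6.18 and 24.1 ± 1.86 CPM, a difference smaller than either spread.

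The remaining type II members did not pass the test, nor did they by DESeq2 and limma-voom, and none had an unadjusted p under 0.05. Cdh11, first known from bone-forming cells and also found in brain, averaged 30.1 ± 8.63 and 22.2 ± 4.52 CPM (log2 difference -0.43 ± 0.22, SE). Cdh20 averaged 13.1 ± 2.6 and 18.5 ± 5.16, and Cdh9, a cadherin of dentate and CA3 synapses, 10.8 ± 2.34 and 15.0 ± 4.12. These estimates carried standard errors of 0.25 and 0.27 on the log2 scale. Cdh12, Cdh7 and Cdh6 had log2 differences of -0.15, 0.12 and 0.00, with standard errors of 0.27, 0.42 and 0.62. Cdh18 did not pass the filter, at means of 3.14 and 1.92 CPM.

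Cdh13 (T-cadherin) stands apart in structure, since it is held in the membrane by a glycosylphosphatidylinositol anchor and lacks the cytoplasmic tail that binds catenins. In the hippocampus it is known from inhibitory synapses. The gene lies on chromosome 19 at 50848736 to 51972103, plus strand (Rnor_6.0). Cdh13 had a CPM of 179, 182, 159 and 187 in vehicle 1 to 4, against 111, 116, 114 and 122 in PAM 1 to 4. The highest PAM library thus lay well below the lowest vehicle library, and the PAM libraries were close together. Its mean went from 177 ± 12.5 to 116 ± 4.5 CPM (SD, n = 4 each), a log2 fold change of -0.61 ± 0.10 (SE; adjusted p = 0.000426, edgeR's quasi-likelihood test with Benjamini-Hochberg adjustment). In the authors' deposited table its log2 fold change was -0.62 with an adjusted p of 6.71e-07. The call held in all 18 alternatives to the processing, with a log2 fold change of -0.63 without PAM 3 and PAM 4 and -0.55 after the trend with exonic length was removed.

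**Figure D3:**
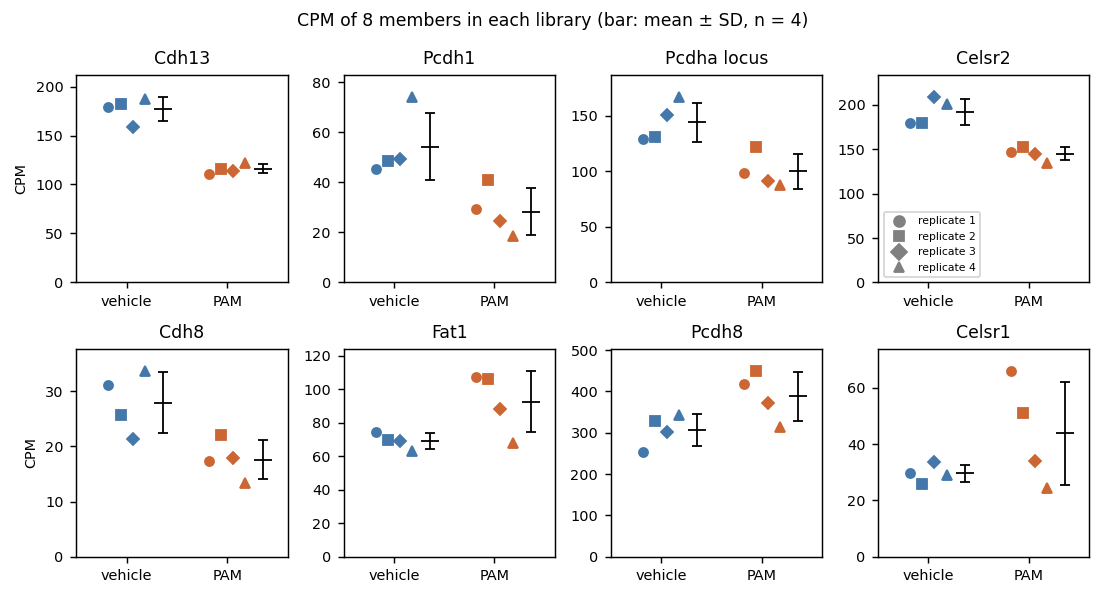
CPM (vertical axes, from 0) of 8 members in each library, vehicle in blue and PAM in orange, with 1 symbol per replicate number and the mean ± SD of 4 libraries beside them. Cdh13, Pcdh1, the Pcdha locus and Celsr2 have PAM libraries below all vehicle libraries, whereas for Fat1, Pcdh8 and Celsr1 PAM 4 lies within or below the vehicle range.

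The Celsr genes encode flamingo-type cadherins with a receptor-like membrane domain that act in planar cell polarity, axon tracts and dendrite growth, and their estimates went in different directions. Celsr2 (chromosome 2, 211183311 to 211207465, minus strand, Rnor_6.0) read 179, 180, 209 and 201 CPM in vehicle 1 to 4, against 147, 152, 145 and 135 in PAM 1 to 4. All PAM libraries lay below all vehicle libraries, a pattern found in 12.0% of all tested genes and in 6 of the 38 tested members. Of these 6, Fat4 and Pcdhga4 passed the filter through the vehicle libraries. Celsr2 fell from 192 ± 14.9 to 145 ± 7.2 CPM (SD, n = 4 each). The log2 fold change was -0.41 ± 0.10 (SE; adjusted p = 0.00943, edgeR's quasi-likelihood test with Benjamini-Hochberg adjustment). Removing the trend with exonic length brought it to -0.22, with an adjusted p of 0.136, and a test against a 1.2-fold change gave an adjusted p of 0.156.

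Celsr1 and Celsr3 had estimates of opposite sign. Celsr1 read 29.9, 25.9, 33.5 and 29.1 CPM in vehicle 1 to 4, against 65.9, 51.0, 33.9 and 24.5 in PAM 1 to 4. Celsr3 read 58.5, 50.9, 70.4 and 53.4 in the vehicle libraries and 28.8, 39.9, 40.2 and 67.8 in the PAM libraries. For Celsr1, PAM 1 and PAM 2 were high, PAM 3 lay at the top of the vehicle range and PAM 4 below it, while for Celsr3, PAM 1 to 3 were low and PAM 4 lay within the vehicle range. With all 8 libraries the log2 differences were 0.58 ± 0.24 and -0.42 ± 0.20 (SE; adjusted p 0.0933 and 0.167, edgeR's quasi-likelihood test with Benjamini-Hochberg adjustment). Without PAM 4 they were 0.77 and -0.68, with adjusted p-values of 0.00543 and 0.00427. Without PAM 1 they were 0.32 and -0.26, with adjusted p-values of 0.363 and 0.415. After removal of the trend with exonic length they were 0.73 and -0.21, with adjusted p-values of 0.0156 and 0.579. Celsr3 shares 65 exon bases with another annotated gene, so its counts are uncertain to that extent.

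Fat cadherins carry very long arrays of cadherin repeats and act on the actin cytoskeleton and on Hippo signalling. Fat1 (chromosome 16, 50372128 to 50501921, minus strand, Rnor_6.0) was the member that rose. Fat1 read 74.4, 69.4, 69.2 and 63.1 CPM in vehicle 1 to 4, against 107, 106, 88.4 and 68.1 in PAM 1 to 4. PAM 1 to 3 lay above every vehicle library and PAM 4 lay among them. The means were 69.0 ± 4.62 and 92.4 ± 18.3 CPM (SD, n = 4 each). The log2 fold change was 0.43 ± 0.14 (SE; adjusted p = 0.0407, edgeR's quasi-likelihood test with Benjamini-Hochberg adjustment). Leaving out any library other than PAM 4 took the adjusted p past the threshold (up to 0.133), and leaving out PAM 4 gave 0.00265. Without PAM 3 and PAM 4 the log2 fold change was 0.64, and it was also 0.64 after removal of the trend with exonic length.

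Promoter windows of 250 bases upstream of the start site were searched on both strands for 3 short sites, in RefSeq sequence (GRCr8) that has an entry for 41 of the 54 members. The full cyclic AMP response element, TGACGTCA, was found in the window of 1 member, Fat1, or 2.44% of the 41, beside 1.59% of all 33469 windows. The Fat1 window (chr16:54028610-54028859, minus strand) is shown because Fat1 is the member that rose, with the element in capitals.
Fat1: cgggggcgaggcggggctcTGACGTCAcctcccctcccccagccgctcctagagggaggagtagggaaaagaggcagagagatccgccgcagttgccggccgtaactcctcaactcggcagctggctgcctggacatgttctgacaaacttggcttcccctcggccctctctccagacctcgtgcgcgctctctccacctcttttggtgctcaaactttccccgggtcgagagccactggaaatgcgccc
The AP-1 site TGANTCA was found in the windows of Cdh20 and Pcdhga4 (4.88% of the 41, beside 6.34% of all). A GC box, GGGCGG, was found in 10 members (24.4%, beside 30.5% of all). Such matches describe the letters of the window only.

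Fat3 and Fat4 had negative estimates that missed the threshold in edgeR's comparison of all libraries. Fat3, known from the shaping of dendrites, read 17.7, 18.4, 25.0 and 17.1 CPM in vehicle 1 to 4, against 8.07, 6.82, 12.3 and 20.2 in PAM 1 to 4. PAM 1 to 3 lay below every vehicle library and PAM 4 within their range. The log2 difference was -0.76 ± 0.30 (SE; adjusted p = 0.0862, edgeR's quasi-likelihood test with Benjamini-Hochberg adjustment), and -1.12 with an adjusted p of 0.00408 without PAM 4. Leaving out any other library gave no call, with adjusted p-values of up to 0.237. After removal of the trend with exonic length the difference was -0.52 with an adjusted p of 0.269. By limma-voom Fat3 was called lower, at -0.94 with an adjusted p of 0.0303, and by DESeq2 it was not (adjusted p = 0.0995). Without the low-count filter edgeR's adjusted p was 0.0402. Fat4, the receptor for the cadherin Dchs1, read 5.18, 5.23, 6.57 and 4.85 in the vehicle libraries and 2.77, 1.49, 4.11 and 4.69 in the PAM libraries. These groups did not overlap, although PAM 4 and vehicle 4 were close, and the log2 difference was -0.78 ± 0.44 (SE; adjusted p = 0.236). Its counts were 15 to 21 in each vehicle library and 12, 7, 15 and 13 in PAM 1 to 4. Fat4 thus passed the filter through the vehicle libraries. Fat2 was too low to test, at 2.74 ± 1.54 and 1.54 ± 1.41 CPM.

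The non-clustered delta protocadherins are split by their cytoplasmic motifs into delta-1 and delta-2 genes. Pcdh1 is a delta-1 gene, present in neurons and in epithelia (chromosome 18, 31328919 to 31343797, minus strand, Rnor_6.0). Pcdh1 read 45.1, 48.4, 49.2 and 74.1 CPM in vehicle 1 to 4, against 29.3, 40.9, 24.6 and 18.4 in PAM 1 to 4. No PAM library reached the lowest vehicle library, and vehicle 4 stood well above the other 3. Pcdh1 fell from 54.2 ± 13.4 to 28.3 ± 9.53 CPM (SD, n = 4 each). The log2 fold change was -0.91 ± 0.22 (SE; adjusted p = 0.00586, edgeR's quasi-likelihood test with Benjamini-Hochberg adjustment), the most negative among the members that fell. Without vehicle 4 it was -0.73 (adjusted p = 0.0389), and the call held in all 18 alternatives. Without PAM 3 and PAM 4 the log2 fold change was -0.61.

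The other delta-1 genes, Pcdh9 and Pcdh7, had low and similar levels in both groups. Pcdh9 averaged 13.0 ± 4.2 and 14.1 ± 2.58 CPM and Pcdh7 7.86 ± 1.14 and 8.43 ± 2.23, differences within the spread of each group. Their standard errors were 0.27 and 0.32 on the log2 scale, so that a modest change would not have been detectable at this depth.

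Of the 5 delta-2 genes, 4 were tested and none passed edgeR's test (beside 18.9% of all tested genes), DESeq2 or limma-voom. Of the 4 estimates 3 were above 0, and 2 of them, Pcdh8 and Pcdh10, had an unadjusted p under 0.05. Pcdh8 (arcadlin) is known as a neuronal activity-regulated gene of the hippocampus whose protein takes part in the internalisation of N-cadherin. Pcdh8 read 253, 328, 301 and 342 CPM in vehicle 1 to 4, against 419, 449, 373 and 313 in PAM 1 to 4. PAM 1 to 3 lay above every vehicle library and PAM 4 within their range. The means were 306 ± 39.2 and 388 ± 59.5 CPM (SD, n = 4 each). The log2 difference was 0.35 ± 0.12 (SE; adjusted p = 0.0586, edgeR's quasi-likelihood test with Benjamini-Hochberg adjustment). Without PAM 4 it was 0.44 with an adjusted p of 0.00655, and after removal of the trend with exonic length 0.39 with an adjusted p of 0.0156. Leaving out any other library gave no call, with adjusted p-values of up to 0.191.

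Pcdh10, which binds the WAVE actin regulators and is known from synapse elimination, read 20.1, 23.7, 24.4 and 32.0 CPM in vehicle 1 to 4, against 35.5, 43.1, 27.1 and 28.8 in PAM 1 to 4. Vehicle 4 lay within the PAM range. Its log2 difference was 0.43 ± 0.20 (SE; adjusted p = 0.139, edgeR's quasi-likelihood test with Benjamini-Hochberg adjustment), and 0.67 with an adjusted p of 0.0104 without PAM 3 and PAM 4. With single libraries left out the adjusted p was 0.0813 to 0.348, and with the length trend removed 0.0825. Pcdh17, known from presynaptic assembly, averaged 18.5 ± 4.62 and 15.7 ± 2.58 CPM, a difference within its spread. Pcdh18 averaged 4.06 ± 0.752 and 7.35 ± 2.97 CPM (log2 difference 0.83 ± 0.40, SE). Pcdh19, the gene of a female-limited epilepsy, was too low to test at 1.18 ± 1.02 and 1.3 ± 0.88 CPM.

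Among the remaining non-clustered genes, Pcdh20 averaged 26.4 ± 4.38 and 18.5 ± 7.71 CPM. It read 12.4, 29.6, 17.5 and 14.4 CPM in PAM 1 to 4, so PAM 2 alone reached the vehicle range of 21.6 to 31.7. The log2 difference was -0.49 ± 0.25 (SE; adjusted p = 0.184, edgeR's quasi-likelihood test with Benjamini-Hochberg adjustment), and -0.83 with an adjusted p of 0.015 without PAM 2. Leaving out any other library gave no call, with adjusted p-values of up to 0.411. Pcdh15, a component of the tip links of hair cells, averaged 7.75 ± 1.66 and 7.53 ± 0.991 CPM, and Pcdh12 stayed under the filter.

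Clustered protocadherin genes lie in 3 arrays on chromosome 18. Each variable exon has its own promoter. Alpha and gamma variable exons are spliced to constant exons shared by the whole cluster, whereas beta genes are single exons without a constant part. Reads on shared exons cannot be assigned to an isoform, and variable exons resemble each other, so counts of all 21 clustered identifiers are uncertain. How multi-mapped reads were counted is not given in the sources used here.

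The alpha cluster entered the count tables mainly as 1 identifier that carries 11 Pcdha symbols, called the Pcdha locus here. It has 13 exon blocks with 27070 exonic bases (chromosome 18, 29987206 to 30215897, plus strand, Rnor_6.0). The Pcdha locus read 129, 131, 151 and 167 CPM in vehicle 1 to 4, against 98.9, 122, 91.7 and 87.3 in PAM 1 to 4. PAM 2 came close to the lowest vehicle libraries and the other PAM libraries lay lower, without overlap. It fell from 144 ± 17.8 to 100 ± 15.5 CPM (SD, n = 4 each). The log2 fold change was -0.52 ± 0.13 (SE; adjusted p = 0.00724, edgeR's quasi-likelihood test with Benjamini-Hochberg adjustment). After removal of the trend with exonic length it was -0.25 with an adjusted p of 0.166. The 27070 bases cover the exons of all its isoforms together, so values of this identifier that rest on its length are uncertain. The value is a sum over alpha isoforms and shows none of them. Another 2 identifiers, both with the symbol Pcdha4, held mean levels of 0.589 to 1.58 CPM and were not tested.

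The beta cluster had 13 members, of which 7 were tested. None passed edgeR's test (beside 18.9% of all tested genes), DESeq2 or limma-voom, and none had an unadjusted p under 0.05 (median log2 difference -0.23, range -0.79 to 0.09). Single libraries held 0 to 42 counts per beta gene. Pcdhb5, the most abundant beta member per kilobase, read 8.54, 10.7, 9.39 and 5.82 CPM in vehicle 1 to 4, against 8.3, 6.61, 6.57 and 5.77 in PAM 1 to 4. Pcdhb19 read 4.57, 7.98, 6.26 and 5.5 in the vehicle libraries and 8.07, 7.46, 2.46 and 2.16 in the PAM libraries, with PAM 1 and 2 at the vehicle level and PAM 3 and 4 below it. Summed over the 13 genes, beta levels were 48.5, 58.1, 48.5 and 38.2 CPM in vehicle 1 to 4, against 53.5, 61.2, 31.2 and 31.7 in PAM 1 to 4. PAM 1 lay within the vehicle range, PAM 2 above it, and PAM 3 and 4 below it. Standard errors of single beta genes were 0.32 to 0.66 on the log2 scale, so only large changes were detectable at this depth.

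Beta promoters share letters that other promoters rarely hold. Clustered protocadherin promoters are known for a conserved element with the core CGCT. The commonest word of 10 bases in the RefSeq windows of 19 beta genes was GGTGGCGCTG, which contains that core. It was selected after the letters were seen. It occurred in 14 of the 19 windows (73.7%), in all 11 beta members with an entry, in 0 of 15 gamma windows, in 0 of the 28 other members and in 63 of all 33469 windows (0.188%). The 7 tested beta members are shown with 20 bases on each side, plus strand of chromosome 18 (GRCr8, RefSeq), the shared word in capitals.
Pcdhb3 (chr18:29285594-29285643): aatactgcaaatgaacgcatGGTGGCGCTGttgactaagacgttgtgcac
Pcdhb5 (chr18:29302394-29302443): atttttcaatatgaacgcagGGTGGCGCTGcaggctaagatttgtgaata
Pcdhb7 (chr18:29328988-29329037): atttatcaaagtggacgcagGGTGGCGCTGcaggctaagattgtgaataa
Pcdhb9 (chr18:29379238-29379287): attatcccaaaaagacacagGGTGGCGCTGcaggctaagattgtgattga
Pcdhb10 (chr18:29391768-29391817): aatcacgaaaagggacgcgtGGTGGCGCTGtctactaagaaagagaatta
Pcdhb19 (chr18:29478754-29478803): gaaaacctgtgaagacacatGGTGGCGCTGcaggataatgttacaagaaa
Pcdhb20 (chr18:29485800-29485849): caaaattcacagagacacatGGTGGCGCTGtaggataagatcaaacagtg

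The gamma cluster had 5 members, with at most 25 counts in a library, and Pcdhga4 alone was tested. Pcdhga4 read 3.35, 4.4, 4.07 and 4.21 CPM in vehicle 1 to 4, against 0.691, 2.99, 1.92 and 0 in PAM 1 to 4. The groups did not overlap, and the 0 in PAM 4 allows up to 1.08 CPM. These are 11 to 16 counts in each vehicle library and 3, 14, 7 and 0 in PAM 1 to 4, so Pcdhga4 passed the filter through the vehicle libraries. The log2 difference was -1.41 ± 0.61 (SE; adjusted p = 0.116, edgeR's quasi-likelihood test with Benjamini-Hochberg adjustment). By limma-voom Pcdhga4 was called lower, at -2.08 with an adjusted p of 0.0404, and by DESeq2 it was not (adjusted p = 0.129). The beta and gamma members other than Pcdhb10 and Pcdhgb1 have 1 exon block each in the count tables. Of the 18 beta and gamma members, 5 had no count in PAM 4, 3 in vehicle 3, 1 in PAM 3 and none in the other libraries.

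**Figure D4:**
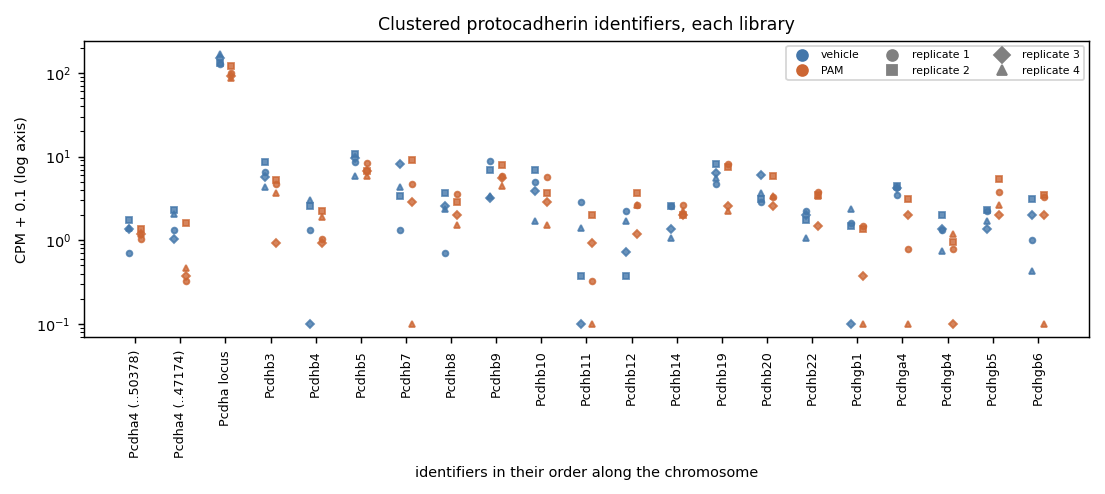
CPM + 0.1 (log axis) of the 21 clustered identifiers in their order along chromosome 18, each library as 1 symbol, vehicle in blue and PAM in orange. The Pcdha locus lies at 87.3 to 167 CPM, and the beta and gamma genes lie near or below 10.7 CPM, where points at the bottom are counts of 0. The Pcdha locus sums 13 exon blocks of several isoforms, while most beta and gamma members have 1 block. These levels thus cover unlike parts of the transcripts and do not compare the clusters.

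Downstream of the gamma exons on the same strand lies an identifier without a symbol in the authors' table, ENSRNOG00000019799 (chromosome 18, 30913842 to 30969361, Rnor_6.0; 10 exon blocks). It is outside the rule. It read 209, 251, 191 and 227 CPM in vehicle 1 to 4, against 284, 277, 195 and 105 in PAM 1 to 4, a log2 difference of -0.02 ± 0.22 (SE). PAM 1 and PAM 2 lay above every vehicle library and PAM 4 below, and without PAM 3 and PAM 4 the log2 difference was 0.37 (adjusted p = 0.00513, edgeR's quasi-likelihood test with Benjamini-Hochberg adjustment). In RefSeq, 12 of 15 protein-coding gamma genes share the same end. Whether reads of the gamma constant exons were counted under this identifier was not tested.

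Genes that work with cadherins were described from lists of catenins, polarity partners, genes of cadherin cleavage, protocadherin partners and other superfamily genes. Of 55 such genes 54 were tested, 2 rose and 9 fell (20.4% called, beside 18.9% of all genes), with a median log2 fold change of -0.06. None of the 8 genes listed for the shedding or cleavage of cadherins passed edgeR's test, DESeq2 or limma-voom. Of these, 1, Psenen, had an unadjusted p under 0.05. The other lists are given in turn.

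Protocadherin partners and regulators counted 17 genes, of which 4 fell (23.5%, beside 9.89% of all genes) and none rose (beside 9.0%; 1, Smc1a, was higher at an unadjusted p under 0.05, and none by DESeq2 or limma-voom). Ptk2b (Pyk2), a calcium-activated kinase held in check by clustered protocadherins, read 168, 189.9, 205 and 188 CPM in vehicle 1 to 4, against 92.0, 81.7, 94.5 and 95.2 in PAM 1 to 4. No PAM library came near the vehicle range. Its log2 fold change was -1.05 ± 0.11 (SE; adjusted p = 5.08e-06, edgeR's quasi-likelihood test with Benjamini-Hochberg adjustment). Cyfip2 and Wasf1, subunits of the WAVE actin complex that protocadherin tails recruit, went from 292 ± 15.4 to 144 ± 26.0 and from 249 ± 27.7 to 160.4 ± 10.9 CPM (SD, n = 4 each). Their log2 fold changes were -1.01 ± 0.12 and -0.64 ± 0.11 (SE). Taok2, the kinase that binds Pcdh8, went from 133 ± 19.8 to 92.0 ± 6.25 CPM with a log2 fold change of -0.53 ± 0.12. All 4 kept their calls whichever library was left out.

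Calsyntenins are cadherin-repeat proteins of the synapse and of axonal cargo, and all 3 fell. They make up 60.0% of the 5 tested genes of their list, beside 9.89% of all genes, and none of the 5 rose by edgeR's test, DESeq2 or limma-voom. Clstn1 read 796, 879, 899 and 864 CPM in vehicle 1 to 4, against 648, 632, 689.9 and 657 in PAM 1 to 4. Clstn3 went from 667 ± 61.9 to 485 ± 32.8 CPM and Clstn2 from 23.7 ± 3.47 to 11.9 ± 3.11 (SD, n = 4 each). The groups of none of the 3 overlapped, and the log2 fold changes were -0.39 ± 0.09, -0.46 ± 0.10 and -0.98 ± 0.23 (SE) for Clstn1, Clstn3 and Clstn2. The calls held whichever library was left out. Cdhr1 and Dsc2, the other tested genes of that list, did not pass. The desmosomal cadherin Dsc2 had an estimate of the opposite sign: 2.74, 2.48, 0.313 and 1.29 CPM in vehicle 1 to 4, against 3.0, 3.2, 5.75 and 9.73 in PAM 1 to 4, with no overlap. These are 1 to 9 counts in each vehicle library and 13, 15, 21 and 27 in PAM 1 to 4. Dsc2 thus passed the filter through the PAM libraries, where it was higher. The log2 difference of Dsc2 was 1.59 ± 0.58 (SE; unadjusted p = 0.0126, adjusted p = 0.0612, edgeR's quasi-likelihood test with Benjamini-Hochberg adjustment). The adjusted p was 0.0439 without the low-count filter and 0.0441 with the length trend removed, and without PAM 3 and PAM 4 the log2 difference was 0.84 with an adjusted p of 0.413.

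Catenins and junction linkers counted 13 tested genes, of which 1 rose (7.69%, beside 9.0% of all genes) and 2 fell (15.4%, beside 9.89%). Nectin1, an immunoglobulin-type adhesion protein of the same junctions, read 186, 247, 251 and 215 CPM in vehicle 1 to 4, against 117, 134, 139 and 108 in PAM 1 to 4, with no overlap. Its log2 fold change was -0.85 ± 0.12 (SE; adjusted p = 7.84e-05, edgeR's quasi-likelihood test with Benjamini-Hochberg adjustment). Ctnnd2, the neuronal delta-catenin, went from 182 ± 9.15 to 133 ± 24.7 CPM (log2 fold change -0.45 ± 0.13, adjusted p = 0.0171), a call lost without vehicle 2 or vehicle 3. Ctnna1, the alpha-catenin that links junctions to actin, rose from 91.9 ± 18.3 to 129.9 ± 23.3 CPM, with vehicle 1 at 116 above PAM 3 and PAM 4. The log2 fold change was 0.50 ± 0.15 (adjusted p = 0.0238), and the call was lost without vehicle 2, 3 or 4 or PAM 1 or 2.

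Polarity partners of Fat and Celsr counted 11 genes, of which 1 rose (9.09%, beside 9.0% of all genes) and none fell by edgeR's test, DESeq2 or limma-voom, or at an unadjusted p under 0.05. Vangl1, a core planar polarity protein that acts with Celsr cadherins, read 11.6, 7.71, 10.6 and 12.6 CPM in vehicle 1 to 4, against 23.3, 25.6, 18.6 and 11.5 in PAM 1 to 4. PAM 4 lay within the vehicle range. Its log2 fold change was 0.91 ± 0.27 (SE; adjusted p = 0.024, edgeR's quasi-likelihood test with Benjamini-Hochberg adjustment), and the call was lost without vehicle 2, vehicle 3, PAM 1 or PAM 2. With the replicate number as a block its adjusted p was 0.0505.

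The tested members are long genes, with a median exonic length of 4109 bases beside 2457 for all tested genes. Spearman's rho of the log2 fold change with exonic length was -0.16 over the 38 tested members and -0.18 over all 11740 genes, which share the same libraries and are not independent replicates. Without PAM 3 and PAM 4, 44 members passed the filter. Of these, 5 were higher (Cdh10, Celsr1, Fat1, Pcdh8 and Pcdh10), or 11.4% beside 11.2% of all genes tested there. Another 6 were lower (Cdh13, Pcdh1, the Pcdha locus, Celsr2, Celsr3 and Fat3), or 13.6% beside 12.5%. With the length trend removed, 4 of 38 were higher (Cdh10, Celsr1, Fat1 and Pcdh8), or 10.5% beside 9.38% of all genes, and 2 lower (Cdh13 and Pcdh1), or 5.26% beside 9.91%. Cdh13, Pcdh1 and Fat1 were called in both, and in the comparison of all libraries. The part of transcript length in these differences beyond this was not tested.

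**Figure D5:**
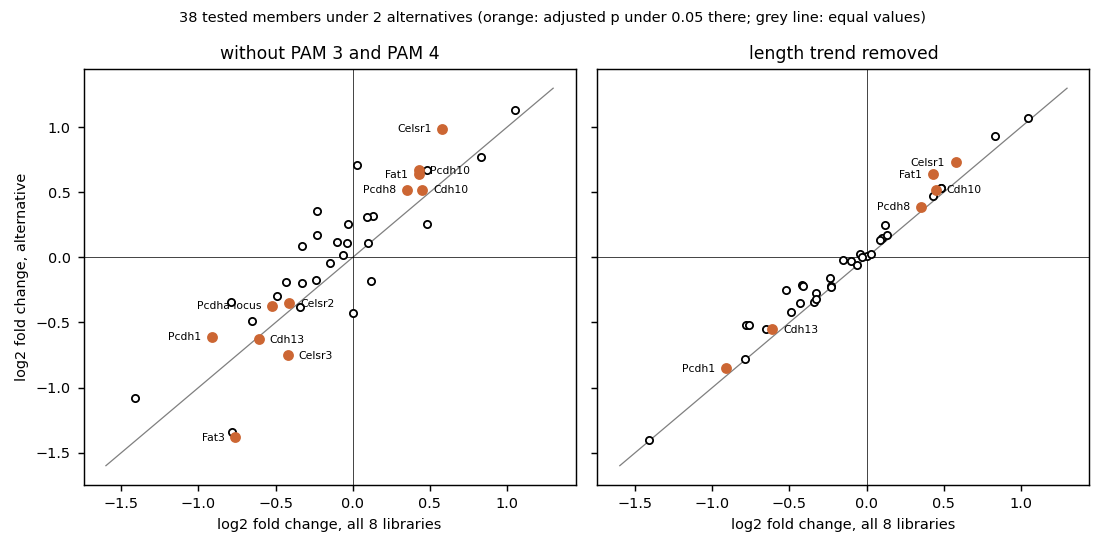
Log2 fold change of the 38 tested members with all 8 libraries (horizontal axis) against that without PAM 3 and PAM 4 (left) and that after removal of the trend with exonic length (right); orange marks an adjusted p under 0.05 in the alternative and the grey line marks equal values. Celsr1 goes from 0.58 to 0.99 and Fat3 from -0.76 to -1.38 on the left, while on the right Celsr2 and the Pcdha locus, at -0.22 and -0.25, are no longer called.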

How the data were processed

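Polyadenylated RNA of rat cultures, in 8 libraries, was sequenced on an Illumina GAIIx, per the labels. The authors deposited whole-number gene counts per library in featureCounts layout, per the file headers, and also deposited their own comparison, which per the file headers holds mean signal values of each group, log2 fold changes, and raw as well as adjusted p-values. Per the submitters' processing notes, the tools were STAR, featureCounts, DESeq2 and DESeq, with the build Rnor_6.0. Versions, annotation release, strandedness and the handling of multi-mapped reads were not given in the sources used here, so antisense and near-identical genes have uncertain counts.

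The members, the lists of partner and marker genes and the alternatives were chosen with earlier results of these data known. Members were joined from the authors' table to the counts by Ensembl identifier. Genes passing edgeR's filterByExpr (11740) were normalised with TMM factors, and edgeR's quasi-likelihood F test (robust, edgeR 4.0.16, limma 3.58.1, R 4.3.3) compared the groups without further terms. Benjamini-Hochberg adjustment covered all tested genes, with a threshold of 0.05. Dividing the log2 fold change by the root of F gave its SE. CPM uses TMM-scaled library sizes. The median SE was 0.20 on the log2 scale, at a common biological coefficient of variation of 17.7%. The length trend was removed with loess offsets (span 0.5) on log2 CPM (prior count 2). Replicates differed by more than counting noise, with a chi-square of 2.77 to 14.8 per degree of freedom, and each was kept as its own replicate. The procedure was tested on simulated counts.

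Named with values were all members past the test, the 2 most abundant per kilobase of each class, members whose groups did not overlap, and called partners. Members added to complete the account, and partners or markers named for an unadjusted p, were chosen after their values were seen. Alternatives used another tool (limma-voom, DESeq2 1.42.0), another scaling (upper-quartile, RLE), a mean of at least 1 CPM or no filter on low counts, a 1.2-fold threshold in the test, a block for the replicate number, 1 library left out at a time, PAM 3 and PAM 4 left out, the length trend removed, and members with shared exon bases left out. Sequences came from RefSeq (GRCr8).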

Additional observations from a re-analysis of the deposited data

Results flagged for a closer look

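Among 76 sets of 4 libraries (38 tested members in each group), 3 held a library far from the other 3 by Dixon's criterion, which chance alone meets in about 1 of 20 sets. Fat3 read 25.0 CPM in vehicle 3, beside 17.1 to 18.4 in the other vehicle libraries. Pcdh1 read 74.1 CPM in vehicle 4, beside 45.1 to 49.2 in the other vehicle libraries, and its log2 fold change of -0.91 became -0.73 without that library. Cdh9 read 21.1 CPM in PAM 2, beside 12.3 to 13.7 in the other PAM libraries.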

How the results depend on the processing

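Of the 6 called members, Cdh13 and Pcdh1 kept their calls in all 18 alternatives, the Pcdha locus and Celsr2 in 16, Fat1 in 9 and Cdh8 in 6. The count of members higher, 1 with all libraries, was 0 by limma-voom and by the test against a 1.2-fold change, 2 with upper-quartile scaling, 3 without the low-count filter, 5 without PAM 3 and PAM 4, 4 with the length trend removed, and 0 to 4 with single libraries left out (4 without PAM 4, 0 without any other). Members lower, 5 with all libraries, numbered 2 by the 1.2-fold test and 2 with the length trend removed, and 4 to 7 with single libraries left out (7 without PAM 2, with Pcdh20 and Pcdhga4 added). By limma-voom 6 members were lower, or 15.8% beside 10.3% of all genes, with Fat3 and Pcdhga4 added and Cdh8 lost. As shares, members lower were 13.2% with all libraries and 9.76% to 18.4% with single libraries left out. Among all genes these shares were 9.89% and 6.7% to 10.6%. By the 1.2-fold test 5.26% of members and 5.13% of all genes were lower. Partner genes higher, 2 with all libraries, numbered 0 by the 1.2-fold test, 4 without the low-count filter, 7 without PAM 3 and PAM 4, 4 with the length trend removed, and 0 to 5 with single libraries left out (0 without vehicle 2 or 3, 1 without vehicle 4 or PAM 1, 5 without PAM 4). These are counts among 54 tested partners, or 55 without the low-count filter. Among all genes the share higher moved as well: 11.2% without PAM 3 and PAM 4, 9.38% with the length trend removed, and otherwise as given above. Partner genes lower, 9 with all libraries, numbered 8 to 11 with single libraries left out.

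The replicate number was used as a block in 1 alternative, which gave 1 member higher and 4 lower (Cdh8 was lost, adjusted p = 0.0625 by edgeR) and 1 partner higher. With the block 2.63% of members were higher and 10.5% lower, beside 8.13% and 9.45% of all genes. Same-numbered libraries did not deviate together (correlations 0.0516, -0.0454, 0.0676 and -0.0595), and none correlated best with its own number, so the numbers were not taken as pairs.

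Signs turned only among members without a call. Without PAM 3 and PAM 4 the log2 differences were 0.09 for Pcdhb10, 0.36 for Pcdhb19, 0.26 for Pcdhb20, 0.11 for Pcdh15, 0.12 for Cdh2, 0.17 for Cdh4, 0.02 for Cdh24 and -0.18 for Cdh7. Upper-quartile scaling gave 0.00 for Pcdhb20 and 0.03 for Cdh6, and the removed length trend 0.00 for Pcdhb20, 0.03 for Pcdh15 and 0.01 for Cdh6. Pcdhb7 was at -0.03 by DESeq2, -0.40 by limma-voom and -0.14 with the block, Cdh6 at 0.06 with the block and Cdh7 at -0.01 by limma-voom. With single libraries left out the ranges were -0.35 to 0.25 for Pcdhb20, -0.68 to 0.54 for Pcdhb7, -0.10 to 0.41 for Pcdhb9, -0.05 to 0.24 for Pcdh7, -0.01 to 0.30 for Pcdh9, -0.13 to 0.11 for Pcdh15, -0.47 to 0.09 for Cdh4, -0.19 to 0.09 for Cdh24, -0.27 to 0.40 for Cdh6 and -0.18 to 0.35 for Cdh7. The cause of these moves was not tested. Depth limited the 16 untested members, with group means of 0.169 to 3.36 CPM.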
